A study of Homo sapiens with 3 samples.

Results

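The genes described are those that encode receptors for the transmitters glutamate, GABA and glycine in SH-SY5Y, a human neuroblastoma cell line grown as adherent cultures. They were chosen by a rule on the names of protein-coding genes of GENCODE 29, with earlier results of these data known. For glutamate the symbols denote AMPA (GRIA), kainate (GRIK), NMDA (GRIN), delta (GRID) and metabotropic (GRM) receptors. The others denote GABA-A (GABR), GABA-B (GABBR) and glycine receptors (GLRA and GLRB). The rule found 52 genes among the 60660 of the deposited table. RNA came from 3 separate flasks at about 60% confluency, each sequenced as 1 stranded mRNA library. The labels name 1 group, the line itself, with no treatment, so each level is set against a fixed level of 1 FPKM or against another gene in the same library. FPKM is the number of sequenced fragments scaled by transcript length and by library size, and errors are SDs over the 3 libraries (n = 3 for each value).

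Ionotropic receptors are ion channels opened by the transmitter. AMPA, kainate and NMDA receptors are tetramers that pass cations, whereas GABA-A and glycine receptors are pentamers that pass chloride. Several of the channels need particular partners: NMDA receptors need the glycine-binding subunit encoded by GRIN1 together with a glutamate-binding GRIN2 subunit, the kainate subunits of GRIK4 and GRIK5 form channels only with those of GRIK1 to GRIK3, and most GABA-A receptors combine alpha, beta and gamma subunits. Metabotropic glutamate receptors and GABA-B receptors signal through G proteins, and the GABA-B receptor is a dimer of a GABA-binding subunit (GABBR1) and a subunit that couples to the G protein (GABBR2).

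The libraries carried the markers of the labelled cell type. All 8 noradrenergic neuroblastoma markers, among them PHOX2A, HAND2 and DBH, were called above 1 FPKM, and their summed level was 4620 to 4740 FPKM. STMN2 held the largest part of that sum (2405 ± 71.9 FPKM). PHOX2A stood at 381.3 ± 10.4, HAND2 at 454.2 ± 9.18 and DBH at 322.8 ± 10.3. The endothelial markers summed to 0.044 to 0.119 FPKM (0 of 4 above, CDH5 at 0), those of microglia and other immune cells to 0.141 to 0.344 (0 of 4, AIF1 at 0), oligodendrocyte markers to 0.2 to 0.366 (0 of 4, MAG at 0), Schwann cell markers to 1.22 to 3.5 (0 of 4, PMP2 at 0), epithelial markers to 2.22 to 3.37 (0 of 4) and astrocyte markers to 3.22 to 4.08 (1 of 4, SLC1A2). Of 4 fibroblast markers 3 were above, PDGFRB, DCN and LUM, with a summed level of 46.5 to 52.9 FPKM; their part in the levels below was not tested. Depth, estimated from the steps between low values, was about 21600000, 28600000 and 43700000 reads in replicates 1, 2 and 3. For a transcript of 4 kb effective length, 3 reads would then equal 0.0347 FPKM in replicate 1, 0.0262 in replicate 2 and 0.0172 in replicate 3, which is a limit from counting error alone.

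In GRIA2 transcripts, and in part in those of GRIK1 and GRIK2, a glutamine codon of the channel pore is recoded by RNA editing through the enzyme that ADARB1 encodes. The genes of the other AMPA subunits carry the same codon, which is not known as a site of this edit. The stretches around it are shown because GRIA2 and GRIA3 were among the receptor genes with the most RNA, and all 4 AMPA genes are alike there. They were read from GENCODE 29 transcripts on GRCh38, 5′ to 3′, with the codon in capitals, and lie at chr4:157336710-157336739 (GRIA2), chrX:123417741-123417770 (GRIA3), chr11:105924732-105924761 (GRIA4) and chr5:153706030-153706059 (GRIA1), all on the plus strand, in exon 12 of GRIA4 and exon 11 of the others. Over these 30 bases the reference differed from GRIA2 at 1 base in GRIA3, 3 in GRIA4 and 4 in GRIA1. FPKM values hold no base calls, so the edit itself was not measured.
GRIA2: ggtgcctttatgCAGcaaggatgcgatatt
GRIA3: ggtgcctttatgCAGcaaggatgtgatatt
GRIA4: ggtgcttttatgCAGcaaggatgtgacatt
GRIA1: ggagccttcatgCAGcaaggatgtgacatt

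Of the 52 receptor genes, 45 had a value above 0 in at least 1 library and were tested, and 7 were listed at 0 in all 3 libraries. The 7 are 13.5% of the 52, near the 14.9% of 19680 protein-coding genes listed at 0. By limma's moderated test with Benjamini-Hochberg adjustment over all genes, 19 lay above 1 FPKM and 24 below, and 2 were called neither. Among all genes tested 45.5% were called above and 43.7% below, and among protein-coding genes tested 70.6% and 24.6%. Each family's count below is to be read against these shares. The median over the 45 was 0.531 FPKM, beside 9.13 over the 16750 protein-coding genes tested. Rescaled to TPM, 14 receptor genes lay above 1, and the calls of GRIK3 (limma adjusted p = 0.149), GRIK4 (0.0556), GRM2 (0.216), GABRG3 (0.143) and GABRA5 (0.912) were lost, while GABRP was called below (0.0258). These shares and medians are descriptions, and their difference was not tested. In libraries of whole cultures, fewer cells that express a gene and less RNA of it per cell cannot be told apart. The nicotinic acetylcholine receptor subunits, the other large set of transmitter-gated channels, gave 6 of 16 above, 9 below and 1 listed at 0. The 6 are 40.0% of the 15 tested, beside 42.2% above of the 45 receptor genes.

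**Figure D1:**
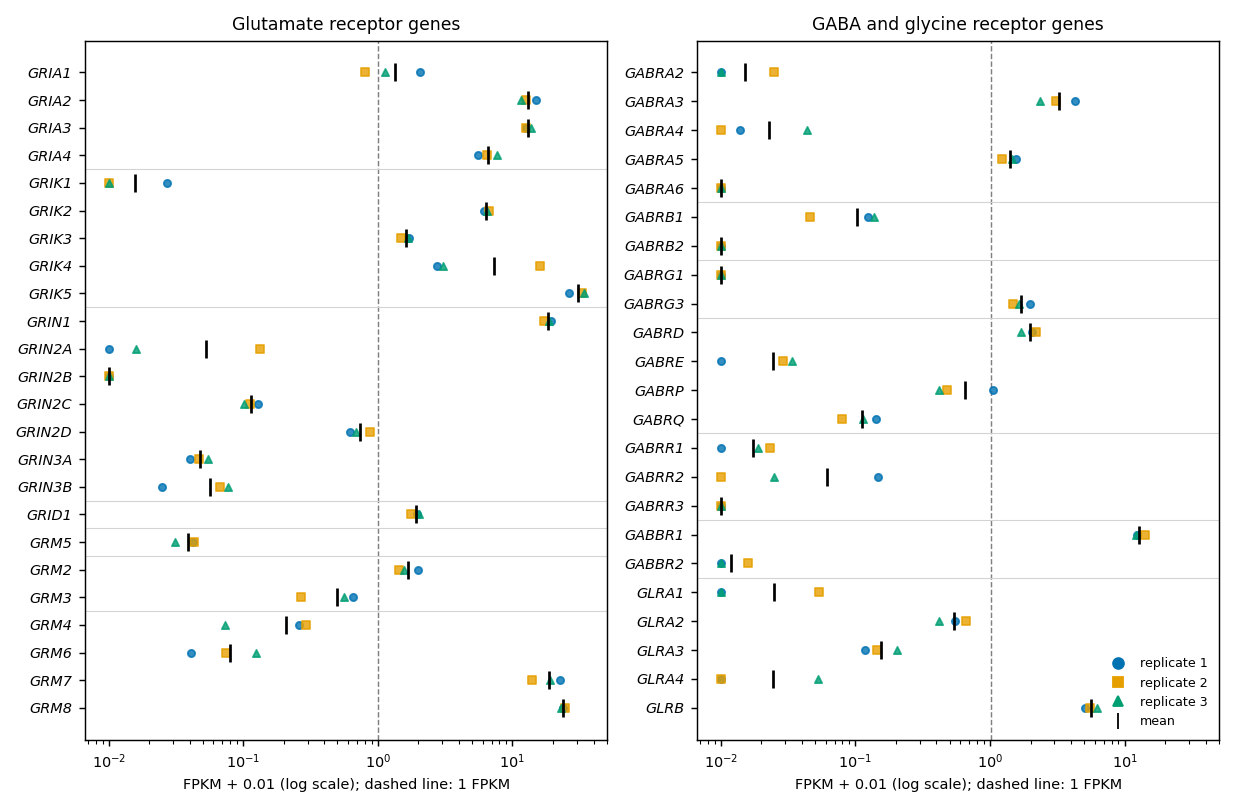
FPKM + 0.01 on a log axis for 47 receptor genes, with 1 point per library and a black bar at the mean of the 3 libraries; thin lines separate families and the dashed line marks 1 FPKM. Several families hold a few genes right of the line and others far left of it, such as GRIN1 against the GRIN2 genes and GABBR1 against GABBR2.

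The summed level of all 52 genes was 219.2, 223.0 and 214.8 FPKM in replicates 1, 2 and 3. GRIK5, GRM8, GRM7, GRIN1, GRIA2, GRIA3 and GABBR1 each averaged at least 10 FPKM. In the order of levels, GRM7 and GRIN1 differed by less than their spread within libraries (log2 difference -0.01 ± 0.25), and so did GRIA2 and GRIA3 (0.00 ± 0.25) and GRIA3 and GABBR1 (0.01 ± 0.17). GRIK5 exceeded GRM8 in 3 of 3 libraries (0.37 ± 0.21). Among genes from GABRD down to GLRA2 in that order, the ranges of each neighbouring pair overlapped.

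AMPA receptors carry fast excitatory transmission, and 3 of their 4 genes were called above 1 FPKM, beside 70.6% of protein-coding genes tested. GRIA2, whose edited subunit keeps calcium out of the channel (chromosome 4, 157204182 to 157366075), stood at 14.9, 12.6 and 11.6 FPKM in replicates 1, 2 and 3 (13.0 ± 1.68, limma adjusted p = 8.33e-05). GRIA3 stood at 12.5, 12.6 and 13.8 FPKM (13.0 ± 0.705), and the ranges of these genes overlapped. GRIA4, whose subunit gates fast and is prominent in early development, stood at 5.56, 6.43 and 7.65 FPKM (6.55 ± 1.05). Its highest library lay below the lowest of GRIA2 and GRIA3.

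GRIA1, the subunit gene tied to activity-dependent insertion of AMPA receptors at synapses, was the lowest of the family. It stood at 2.04, 0.798 and 1.12 FPKM, high in replicate 1, and was called neither above nor below (log2 over the level 0.27, limma adjusted p = 0.432). Without replicate 1 its log2 value was -0.07. GRIA2 made up 42.6%, 38.8% and 34.0% of the summed AMPA subunit FPKM in the 3 libraries, and GRIA1 5.83%, 2.46% and 3.28%. Within libraries GRIA2 exceeded GRIA1 by 3.30 ± 0.51 on the log2 scale, and GRIA3 exceeded GRIA4 by 0.99 ± 0.16, each in 3 of 3.

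Kainate receptors modulate transmission on both sides of the synapse. Of their genes 4 of 5 were called above, beside 70.6% of protein-coding genes tested. GRIK5, the high-affinity subunit (chromosome 19, 41998321 to 42069498), stood at 26.2, 32.6 and 33.7 FPKM (30.9 ± 4.03, limma adjusted p = 5.02e-05). GRIK2, a subunit that can form channels by itself, stood at 6.12, 6.63 and 6.41 FPKM (6.39 ± 0.253), with little spread between libraries. GRIK3 stood at 1.69, 1.48 and 1.65 FPKM (1.61 ± 0.112), and GRIK1 was called below, with 0.017 FPKM in replicate 1 and 0 in the others. GRIK2 exceeded GRIK3 by 1.93 ± 0.15 (log2) in every library. The genes of subunits that cannot open alone, GRIK4 and GRIK5, summed to 3.7, 6.0 and 4.56 times the sum of GRIK1 to GRIK3.

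GRIK4, the other high-affinity subunit gene, was uneven between flasks. It stood at 2.73 FPKM in replicate 1, 16.02 in replicate 2 and 3.02 in replicate 3, so that the highest library was 5.87 times the lowest. Its SD of log2 values, 1.41, was the largest of the 20 receptor genes averaging 1 FPKM or more, whose median was 0.176, and 18 of 12222 protein-coding genes with such a mean had an SD as large, GRIK4 included. GRIK4 was called above (log2 2.25, limma adjusted p = 0.039), and without replicate 2 the log2 value was 1.43 (adjusted p = 0.00642). The call was lost without replicate 1 (adjusted p = 0.065) and without replicate 3 (0.0761). It has 8 annotated transcripts, and the part of the mix of transcripts in this spread was not tested.

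NMDA receptors are the calcium-permeable coincidence detectors of glutamate synapses. Of their 7 genes 6 were tested and 1 was called above, beside 70.6% of protein-coding genes tested. GRIN1 (chromosome 9, 137138390 to 137168762) stood at 19.4, 17.0 and 18.7 FPKM (18.4 ± 1.2, limma adjusted p = 3.86e-05). GRIN2D, the GRIN2 gene known for embryonic expression and slow channel closing, was the highest of the others at 0.613, 0.870 and 0.678 FPKM. It was called below 1 FPKM (log2 -0.44, limma adjusted p = 0.0372), a call lost without replicate 1 (adjusted p = 0.131) and without replicate 3 (0.15). It has 1 annotated transcript, on which these values correspond to about 64.8, 121.7 and 145.0 reads.

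The remaining NMDA genes lay lower still. GRIN2C stood at 0.119, 0.102 and 0.092 FPKM, GRIN2A at 0, 0.123 and 0.006, and GRIN2B, the main GRIN2 gene of the fetal forebrain, was listed at 0 in all libraries. GRIN3A (0.0373 ± 0.00751 FPKM) and GRIN3B (0.0463 ± 0.0276) were also called below, and they differed by less than their spread (-0.07 ± 0.22 on the log2 scale). GRIN3B shares 85 exonic bases with the oppositely transcribed TMEM259 (104 ± 6.04 FPKM), so its value is uncertain. GRIN1 exceeded the summed GRIN2 genes 26.5, 15.6 and 24.1 times in replicates 1, 2 and 3. Against GRIN2D alone the log2 difference was 4.50 ± 0.32, in 3 of 3 libraries, and GRIN2D exceeded GRIN2A by 2.61 ± 0.42 (0.72 with a pseudocount of 1 and 4.7 with 0.01).

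The delta receptors bind cerebellins and organise synapses rather than opening to glutamate. GRID1 stood at 1.96, 1.77 and 2.01 FPKM (1.91 ± 0.128) and was called above (limma adjusted p = 0.00156). Their extracellular partner CBLN1 stood at 10.9 ± 0.357 FPKM and CBLN2 at 2.11 ± 0.362, both called above, while CBLN4 was called below (0.25 ± 0.0951).

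Among metabotropic glutamate receptors 3 of 8 were called above, beside 70.6% of protein-coding genes tested. In groups II and III, which inhibit adenylyl cyclase, 1 of 2 and 2 of 4 were called above and the rest below. GRM8 (chromosome 7, 126438598 to 127253294) stood at 23.8, 24.5 and 23.0 FPKM (23.8 ± 0.739, limma adjusted p = 3.02e-05), with the smallest log2 spread (0.045) of the 20 receptor genes at or above 1 FPKM. GRM7 (chromosome 3, 6770001 to 7741533), like GRM8 a presynaptic autoreceptor gene of group III, stood at 22.7, 14.0 and 19.0 FPKM (18.6 ± 4.34), lowest in replicate 2. GRM7 and GRM8 together held 93.4%, 94.4% and 94.3% of the summed metabotropic FPKM. Of the other group III genes, GRM4 stood at 0.251, 0.284 and 0.063 FPKM and GRM6, the receptor gene of retinal ON bipolar cells, at 0.031, 0.065 and 0.115, both called below. GRM8 exceeded GRM4 by 6.41 ± 0.64 (log2) in every library.

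In group II, GRM2 stood at 1.99, 1.43 and 1.55 FPKM and was called above (limma adjusted p = 0.0127), a call lost without replicate 3 (0.0556). GRM3 stood at 0.639, 0.260 and 0.549 FPKM and was called below (0.0315), a call also lost without replicate 3 (0.0815). GRM2 exceeded GRM3 by 1.65 ± 0.39 on the log2 scale (0.85 with a pseudocount of 1). GRM5, a group I receptor gene that acts through phospholipase C, was called below at 0.032, 0.033 and 0.021 FPKM. GRM5 shares 4364 of its 8657 exonic bases with GRM5-AS1 on the other strand (0, 0 and 0.432 FPKM), so its low value is uncertain.

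Of 19 GABA-A receptor subunit genes 5 were called above 1 FPKM, 7 below and 1 neither, and 6 were listed at 0. Of the beta genes, whose subunits help to form the GABA binding site, GABRB1 was called below at 0.113, 0.036 and 0.127 FPKM and GABRB2 was listed at 0 in all 3 libraries.

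Of 6 alpha subunit genes, which shape GABA affinity and drug response, 2 were called above. GABRA3 stood at 4.27, 3.10 and 2.34 FPKM (3.24 ± 0.975, limma adjusted p = 0.00444) and GABRA5 at 1.55, 1.21 and 1.44 (1.399 ± 0.175, adjusted p = 0.0221). The call for GABRA5 was lost without replicate 1 (adjusted p = 0.0901) and without replicate 3 (0.109). GABRA3 exceeded GABRA5 by 1.12 ± 0.40 (log2), in every library. GABRA4 and GABRA2 were called below with no value above 0.034 FPKM, and GABRA6, known from cerebellar granule cells, was listed at 0.

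Of the gamma genes, GABRG1 was listed at 0. GABRG3 was called above at 1.98, 1.48 and 1.62 FPKM (1.69 ± 0.256, limma adjusted p = 0.00831). The delta subunit gene GABRD, which replaces gamma in receptors outside the synapse, stood at 2.03, 2.18 and 1.68 FPKM (1.97 ± 0.257) and was called above. GABRP, a subunit gene best known from epithelia, stood at 1.04, 0.471 and 0.411 FPKM and was called neither (limma adjusted p = 0.106). It was called below without replicate 1 (adjusted p = 0.00953) and in TPM (0.0258), and the 4 epithelial markers, none called above, summed to 2.22 to 3.37 FPKM; their part in its level was not tested. GABRQ (0.131, 0.070 and 0.103 FPKM) and GABRE (0, 0.019 and 0.024) were called below, and GABRQ exceeded GABRE by 0.81 ± 0.36 on the log2 scale (0.12 with a pseudocount of 1 and 2.34 with 0.01). The rho genes of retinal GABA receptors were at or near 0, with GABRR2 highest (0.138, 0 and 0.015 FPKM), GABRR1 at 0, 0.013 and 0.009, and GABRR3 listed at 0.

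Many GABA-A genes sit in chromosomal clusters. In that of chromosome 4, 46035769 to 47426444, GABRA2, GABRA4 and GABRB1 were called below and GABRG1 was listed at 0. On chromosome X, 151953124 to 152657534, GABRA3 was called above while its neighbours GABRE and GABRQ were called below. GABRR1 and GABRR2, side by side on chromosome 6, were both called below. GABRA5 and GABRG3, which lie on the same strand of chromosome 15, were both called above, and both calls were lost in TPM. Among protein-coding genes tested 70.6% were called above and 24.6% below. Whether neighbours share a level was not tested.

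The GABA-B subunits lay at opposite ends of the levels. GABBR1 (chromosome 6, 29555629 to 29633976) stood at 12.5, 14.1 and 12.1 FPKM (12.9 ± 1.06, limma adjusted p = 5.25e-05), and GABBR2 (chromosome 9, 98288082 to 98709197) at 0, 0.006 and 0. The value of GABBR2 in replicate 2 is under the floor of 0.0262 FPKM for 3 reads at an effective length of 4 kb, so no ratio is given. Their log2 difference was positive in 3 of 3 libraries. GABBR1 shares 722 exonic bases with UBD on the same strand, which was listed at 0.

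Glycine receptors combine alpha subunits with the beta subunit of GLRB, which anchors them to gephyrin and opens no channel by itself. GLRB stood at 5.07, 5.53 and 6.19 FPKM (5.60 ± 0.564, limma adjusted p = 0.000163) and was called above, while all 4 alpha genes were called below. GLRA2, the alpha gene of the fetal nervous system, was highest among them at 0.536, 0.649 and 0.408 FPKM (limma adjusted p = 0.0102), followed by GLRA3 at 0.108, 0.134 and 0.192. GLRA1, mutated in startle disease, and GLRA4 each had a value in 1 library only (0.044 FPKM in replicate 2 and 0.043 in replicate 3). GLRB exceeded the summed alpha genes 7.87, 6.68 and 9.63 times. GLRB exceeded GLRA3 by 4.55 ± 0.11 (log2), in every library (2.52 with a pseudocount of 1). GLRB (chromosome 4, 157076057 to 157172090) ends shortly before GRIA2 begins on the same strand. Both were called above, as were 70.6% of protein-coding genes tested.

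**Figure D2:**
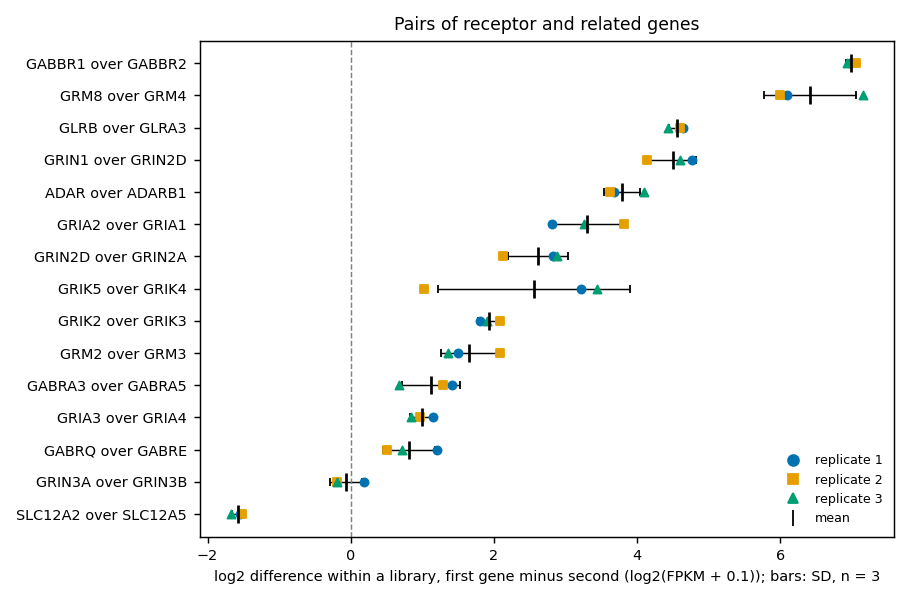
Difference of log2(FPKM + 0.1) within each library, first gene minus second, for 15 pairs of genes; points are libraries, black bars the mean and whiskers the SD (n = 3). All pairs drawn but GRIN3A over GRIN3B keep 1 sign in every library, SLC12A2 over SLC12A5 lies left of 0, and GRIK5 over GRIK4 has the widest spread.

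In all, 22 pairs were set, and 4 of them held a gene listed at 0 and gave no difference. In 17 of the 18 others all 3 libraries had the same sign. With 3 libraries a two-sided exact sign-flip test cannot fall below 0.25, so those 17 pairs had exact p = 0.25 (0.265 after Benjamini-Hochberg adjustment) and GRIN3A over GRIN3B had exact p = 0.5. None of the 18 passed the threshold, adjusted or not. The differences understate the distance of genes near 0, since 0.1 FPKM is added to each value.

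Over 6 lists with 116 partner genes of these receptors, 82 were called above 1 FPKM, 19 below and 6 neither, and 9 were listed at 0. The 82 are 76.6% of the 107 tested, near the 70.6% of protein-coding genes tested that were called above, so the count does not set the partners apart. Each list's count is to be read against that 70.6% above and the 24.6% below. Of 34 partners of ionotropic glutamate receptors 30 were tested, with 26 above and 4 below. CACNG4, an auxiliary subunit that traffics and slows AMPA receptors, stood at 172 ± 2.89 FPKM, ADAR at 84.7 ± 4.34, and CPT1C, which binds AMPA receptors in the endoplasmic reticulum, at 79.96 ± 1.73. The kainate receptor auxiliary gene NETO2 stood at 71.3 ± 6.22 FPKM while its paralog NETO1 was listed at 0, as were CACNG3, SHISA6 and SHISA8. The lowest member with a value was GRIP1, an AMPA receptor scaffold gene, at 0.083 ± 0.0677. ADARB1, the editing enzyme of the GRIA2 pore codon shown above, was called above at 6.36, 6.58 and 5.19 FPKM (6.04 ± 0.747), and ADAR exceeded it by 3.79 ± 0.25 (log2) in every library.

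Of 21 genes that make and move glutamate 19 were tested, with 13 above and 6 below, close to the 70.6% and 24.6% over protein-coding genes. GLUL, the gene of glutamine synthetase, was highest at 120.4 ± 6.25 FPKM, followed by the glutamine transporter gene SLC38A2 (91.4 ± 1.42) and GOT2 (68.4 ± 3.39). The vesicular glutamate transporters, which define glutamate-releasing neurons, were all called below, with SLC17A7 at 0.563 ± 0.0876 FPKM, SLC17A6 at 0.003 ± 0.0052 and SLC17A8 lowest at 0.002 ± 0.00346. SLC1A3 and GLUD2 were listed at 0.

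Of 17 genes of GABA and glycine supply 15 were tested, with 10 above, 4 below and 1 neither, again close to those shares. The serine hydroxymethyltransferase gene SHMT2, which makes glycine in mitochondria, stood at 69.6 ± 8.13 FPKM, the glycine cleavage gene GCSH at 57.4 ± 0.644 and ABAT, which degrades GABA, at 26.6 ± 2.43. GAD1, which makes GABA, was called below at 0.141, 0.572 and 0.174 FPKM, GAD2 and SLC6A13 were listed at 0, and the vesicular transporter SLC32A1 was called below at 0.039, 0.162 and 0. SLC6A5, the glycine transporter of glycinergic neurons, was lowest at 0.00233 ± 0.00404.

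Partners of GABA-A and glycine receptors gave 16 of 19 tested above and 1 below, beside 70.6% and 24.6% of protein-coding genes. GABARAP (355.9 ± 21.3 FPKM), MAGED1 (229.3 ± 13.9) and UBQLN1 (128.6 ± 12.5) were highest, but they also serve in autophagy, signalling and protein turnover. The inhibitory scaffold gene GPHN, which encodes gephyrin, stood at 29.5, 29.5 and 22.1 FPKM, and HAP1 was lowest (0.231 ± 0.23). Of 15 partners of metabotropic and GABA-B receptors 14 were tested, with 8 above and 4 below. HOMER3 (22.8 ± 0.86 FPKM), PIANP (22.3 ± 4.57), which binds GABA-B receptors, and HOMER2 (14.1 ± 0.634) led them, the HOMER genes encoding scaffolds of group I receptors. KCTD8 was listed at 0, and KCNJ6, a subunit gene of the potassium channel that GABA-B receptors open, was lowest with a value (0.006 ± 0.001). Of the other KCNJ genes in the list, KCNJ9 was called above (5.76 ± 0.37 FPKM) and KCNJ3 neither (1.58 ± 0.461).

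Chloride transporters set whether GABA excites or inhibits, and 9 of 10 genes of the list were called above and 1 neither, beside 70.6% of protein-coding genes above. The regulating kinase genes WNK1 (115.3 ± 6.64 FPKM), STK39 (44.8 ± 1.05) and WNK2 (34.6 ± 2.65) were highest, and WNK3 was lowest (1.68 ± 0.19). SLC12A2, which loads chloride into the cell, stood at 6.97, 5.65 and 6.32 FPKM, and SLC12A5, the neuronal exporter, at 20.6, 16.3 and 20.4. SLC12A2 lay below SLC12A5 in 3 of 3 libraries, by a log2 difference of -1.58 ± 0.08.

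**Figure D3:**
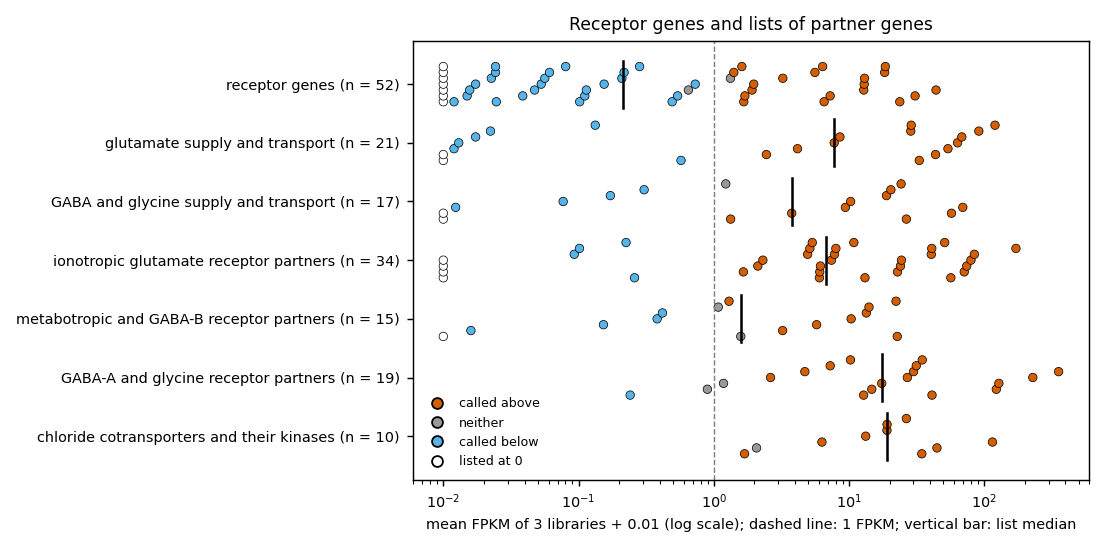
Mean FPKM + 0.01 on a log axis for the 52 receptor genes and the 6 lists of partner genes, with 1 point per gene coloured by its call against 1 FPKM (dashed line) and a vertical bar at each list's median. The median of the receptor genes is 0.203 FPKM, that of the chloride cotransporter list 19.1, and open circles at the left edge are genes listed at 0.

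Of the 52 genes 38 had a promoter entry in the RefSeq table (GRCh38.p14), taken as 250 bases before to 50 after the start nearest the 5′ end of the GENCODE gene, which for the genes shown lies inside the annotated gene. Those without one include GABRA3, GABRA5, GABRD, GLRA4, GRIA3, GRID1, GRIK1, GRIN1 and GRIN2C. The promoters of the GABA-B subunits are shown because the genes lie at opposite levels, and those of GRIA2 and GABRA6 because they have few CG dinucleotides at a high level and at a level of 0. They were picked after the values were seen. RefSeq lists 3 starts for GRIA2, of which 1 was counted, and 1 each for GABBR1, GABBR2 and GABRA6. Sequences run 5′ to 3′ on the gene's strand, with CG in capitals, and lie at chr6:29627964-29628263 (GABBR1, minus), chr9:98708886-98709185 (GABBR2, minus), chr4:157219870-157220169 (GRIA2, plus) and chr5:161685471-161685770 (GABRA6, plus).
GABBR1: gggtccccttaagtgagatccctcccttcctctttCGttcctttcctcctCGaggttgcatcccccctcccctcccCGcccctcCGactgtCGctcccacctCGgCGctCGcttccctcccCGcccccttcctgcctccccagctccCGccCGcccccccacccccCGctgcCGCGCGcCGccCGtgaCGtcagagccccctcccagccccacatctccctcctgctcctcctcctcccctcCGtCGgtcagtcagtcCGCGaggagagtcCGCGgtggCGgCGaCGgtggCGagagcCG
GABBR2: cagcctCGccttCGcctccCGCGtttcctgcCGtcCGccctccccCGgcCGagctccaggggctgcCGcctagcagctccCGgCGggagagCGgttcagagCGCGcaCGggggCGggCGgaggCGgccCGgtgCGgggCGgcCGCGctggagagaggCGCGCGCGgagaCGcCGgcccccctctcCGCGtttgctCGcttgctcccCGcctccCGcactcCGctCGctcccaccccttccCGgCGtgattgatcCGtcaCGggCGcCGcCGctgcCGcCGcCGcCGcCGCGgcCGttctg
GRIA2: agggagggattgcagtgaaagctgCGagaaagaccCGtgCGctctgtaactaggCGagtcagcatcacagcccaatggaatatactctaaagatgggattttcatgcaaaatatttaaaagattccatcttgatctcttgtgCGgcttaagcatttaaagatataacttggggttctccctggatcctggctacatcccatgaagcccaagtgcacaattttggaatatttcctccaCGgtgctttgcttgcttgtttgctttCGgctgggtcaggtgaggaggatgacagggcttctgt
GABRA6: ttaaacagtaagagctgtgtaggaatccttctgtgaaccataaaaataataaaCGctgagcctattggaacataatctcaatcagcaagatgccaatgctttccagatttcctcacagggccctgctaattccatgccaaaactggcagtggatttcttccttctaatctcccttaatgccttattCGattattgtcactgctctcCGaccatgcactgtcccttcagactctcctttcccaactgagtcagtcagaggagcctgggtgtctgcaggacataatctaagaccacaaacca

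The count of CG in the window was 29 in GABBR1, 50 in GABBR2, 7 in GRIA2 and 3 in GABRA6. GABBR2 thus had the most CG of the 38, although it was near 0, and GRIA4 with 4 had the fewest of the genes called above. GRIA4, like GRIA2, has 3 listed starts, and the windows of the starts not kept were not counted. Medians were 31 over the 12 receptor genes called above, 14 over the 19 called below and 7 over the 5 listed at 0. Over all 14828 protein-coding genes with an entry they were 27, 10 and 4 in the same order. The ranges overlapped, at 4 to 49 CG for receptor genes called above and 5 to 50 for those called below. The letters GGGCGG, a box bound by SP1-type factors, were found on either strand in 9 of 12 receptor promoters called above, 9 of 19 called below and 1 of 5 listed at 0. These are 75.0%, 47.4% and 20.0%, near the 72.3%, 43.2% and 23.2% over all protein-coding genes with the same calls. TATAAA was found in 1 of 38, beside 9.5% of all windows. These matches describe letters in the window, and no binding or methylation was measured.

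**Figure D4:**
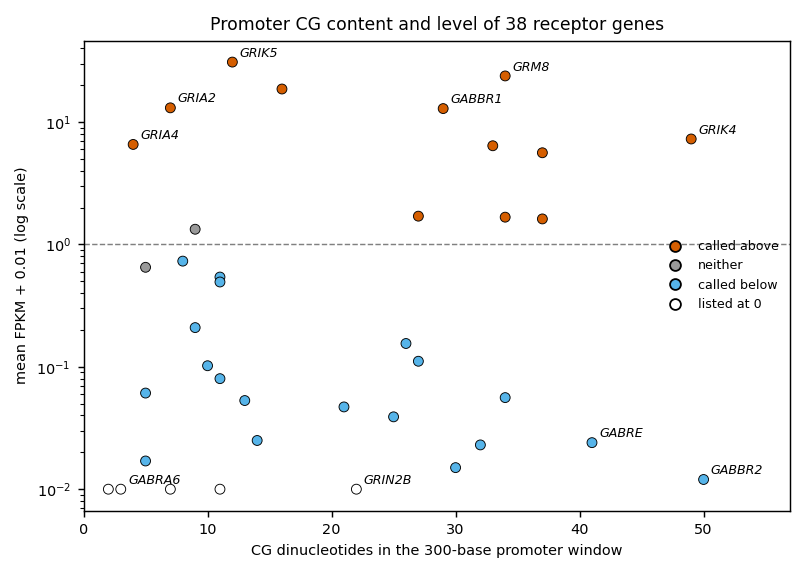
CG dinucleotides in the 300-base promoter window (x axis) against mean FPKM + 0.01 on a log axis for the 38 receptor genes with an entry, coloured by the call against 1 FPKM. Counts are at 1 start per gene, and GRIA2 and GRIA4 each have 3 listed starts. GRIA2 with 7 CG and GRIA4 with 4 lie above the dashed line. GABBR2 and GABRE lie near the bottom with 50 and 41 CG.

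Of the 52 genes, 21 share any 50-base window with another gene. The share of 50-base windows of a gene's transcripts that also occur in transcripts of another gene was 0.14% for GRIA2, 0.12% for GRIA3 and 2.23% for GRM8. The highest shares were 7.75% for GABBR1, all with UBD, and 5.64% for GRM5. Between receptor paralogs the overlap was small, with 7 windows shared by GRIA2 and GRIA3 and 21 by GABRR1 and GABRR2. Exons of other receptor genes overlap genes on the opposite strand, and the strand setting of the counting is unknown here. GABRG3 shares 1100 of 12595 exonic bases with AC104002.3 (0.0473 ± 0.00723 FPKM) and GRM3 401 of 4474 with AC005009.2 (0.49 ± 0.342), so the GRM3 value is uncertain. GRIK1 shares 45 bases with BACH1 (15.7 ± 2.15 FPKM) and GLRA4 76 with TMEM31 (0.345 ± 0.151), both partners above the receptor gene. GABRA4 and GABRB1 share 204 bases with each other, GABRP 77 with AC008514.1 (0.176 ± 0.0779 FPKM) and GRID1 196 with AC022028.2 (0.23 ± 0.0777).

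Between flasks, the median SD of log2 values was 0.176 over the 20 receptor genes averaging 1 FPKM or more. Over the 12222 protein-coding genes averaging 1 FPKM or more it was 0.105. These sets were not matched for level, and the difference was not tested. Of the 20, 10 were highest in replicate 1, 5 in replicate 2 and 5 in replicate 3.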

How the data were processed

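RNA was sequenced from 3 flasks of SH-SY5Y cells (1 group, replicates 1 to 3), with 500 ng of total RNA per stranded mRNA library and reads of 50 bases, per the labels and the series' design text. Per the submitters' processing notes, Cufflinks 2.2.1, TopHat2 2.1.1, FastQC 0.10.1 and bcl2fastq were used with hg38. Their settings, strand option and annotation release are not stated there. The authors deposited 1 table of FPKM values for 60660 Ensembl identifiers, of which 57046 matched GENCODE 29. A name held by several identifiers took the highest mean.

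FPKM is no count, so no count model was used. Genes above 0 in at least 1 library and with a value in at least 2 (31736) were tested on log2(FPKM + 0.1) against 1 FPKM. The test was that of limma 3.58.1 in R 4.3.3 (two-sided, Benjamini-Hochberg adjusted p under 0.05). The same fit was also run on simulated data, and its outcome is not given here. Pairs of genes were compared within libraries with an exact sign-flip test. The flasks are separate cultures of 1 line.

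Depth was estimated from single-transcript genes of 600 or more exonic bases, assuming fragments of 200 bases. Depths were searched upward for one at which low values were whole reads, since multiples of it fit too. At the depths found, 96.6%, 96.7% and 96.7% of low values lay within 0.1 of a whole read. Chance gives 20% at a depth not so chosen, so these shares are no separate check. An FPKM of 0 can be a failed estimate. Promoters are from RefSeq. Other steps used Python 3.11.15 with pandas 2.3.3 and numpy 2.4.6.

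Receptor genes averaging 0.5 FPKM or more, the highest and lowest of each family, genes of the pairs and those listed at 0 are named, and of partner lists the 3 highest and the lowest with a value. The other receptor genes and NETO2, GPHN, KCNJ3, KCNJ9 and the CBLN and vesicular transporter genes were named after their values were seen. Some receptor genes are not reported here by name, nor drawn where genes are labelled. The receptor genes, lists, pairs and tests were chosen with earlier results of these data known. The alternatives were other pseudocounts, filters and levels, rescaling by median ratio or to TPM, and leaving out each library.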

Additional observations from a re-analysis of the deposited data

How the results depend on the processing

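The count of receptor genes called above 1 FPKM was 19, and it lay between 14 (rescaled to TPM) and 21 (level of 0.5 FPKM) in all alternatives but a level of 5 FPKM, which gave 9. The 24 called below became 9 when only genes averaging 0.1 FPKM or more were tested, which removes the lowest genes. The 82 partner genes called above stayed within 64 and 88, while the 19 called below became 10 with that filter and 35 at a level of 5 FPKM. In TPM every gene moves in log2 by -0.47 (replicate 1), -0.54 (replicate 2) and -0.46 (replicate 3). Relative to 1 TPM, GABRA5 had a log2 value of -0.01 and GRIA1 of -0.17, both on the other side of the level, and GRIK3, GRIK4, GRM2 and GABRG3 lost their calls, while GABRP was called below (log2 -1.07, limma adjusted p = 0.0258). Without 1 library at a time, GRIA1 lay between -0.07 and 0.56. Members called above numbered 16 to 19 and those called below 20 to 23 without 1 library. Among refits of single receptor genes, 360 kept direction and side of the threshold. With the direction kept, 20 lost a call and 2 gained one. Direction changed in 3, and of these GABRA5 in TPM also lost its call. The call for GRIK4 was also lost with pseudocounts of 1 (limma adjusted p = 0.0535) and 0.01 (0.0538) and with no filter (0.0902), and those for GRIN2D and GRM3 with a pseudocount of 0.01 and with no filter. All 90 refitted pair differences kept their sign, but those of genes near 0 moved in size with the pseudocount: GRIN2D over GRIN2A lay between 0.72 and 4.7, and GABRQ over GABRE between 0.12 and 2.34, at pseudocounts of 1 and 0.01. No paired analysis was possible because there is 1 group. Depth limits what can be said of genes under about 0.03 FPKM.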
